A study of Homo sapiens with 9 samples.

Results

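The chromatin of the 4 human HOX clusters was examined in SK-N-BE(2)c, an established neuroblastoma cell line, by ATAC-seq, in which the Tn5 transposase cuts and tags open DNA. Cells had been transfected, with Lipofectamine 2000, with 100 nM of an antisense oligonucleotide (ASO) and were collected at 48 h. The oligonucleotides ASO2 and ASO10 target NESPR, a long non-coding RNA of adrenergic neuroblastoma cells, and NCA served as negative control. Each of the 3 groups had 3 libraries, and no untransfected cells were used here, so all groups share the transfection. A region of the deposited count table was a member when its centre lay in an interval around a cluster (GRCh38): HOXA at chr7:27090000-27215000, HOXB at chr17:48520000-48770000, HOXC at chr12:53930000-54060000 and HOXD at chr2:176080000-176195000. This gave 63 of 148797 regions, of which 8 lay in HOXA, 22 in HOXB, 20 in HOXC and 13 in HOXD. All values come from 1 cell line, and the RNA of NESPR and of the HOX genes was not measured here.

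HOX genes encode homeodomain transcription factors that give cells along the body axis their positional identity. They stand in 4 clusters in which gene order matches the place of expression, so that genes of low number are used towards the head and genes of high number towards the tail. Genes of the same number in different clusters are paralogs. In embryonic stem cells the clusters are held silent by Polycomb complexes, and trithorax complexes and retinoic acid signalling act in opening them. Below, paralog groups 1 to 3 are called anterior, 4 to 8 central and 9 to 13 posterior, and a region is placed by its nearest HOX gene.

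Total counts per library ranged from 7293565 to 10948569, and HOX regions held 0.0388% to 0.0432% of them. Counts in single HOX regions ran from 0 to 594 with a median of 26, and 29 of the 63 regions had a mean count under 20, so precision was low in many of them. Enough counts for a test were present in 54 regions, that is 7 in HOXA, 15 in HOXB, 20 in HOXC and 12 in HOXD. The 9 others, 7 of them in HOXB, entered sums and levels only. A region lay within 1 kb of a gene end for 8 of 9 adrenergic genes (none at TH) and 6 of 7 mesenchymal genes (none at PRRX1). The same held for 4 of 7 markers of blood, liver or epithelium. Of 15843 protein-coding genes 73.8% had a region within 1 kb of a start, so these counts do not identify a lineage. None of these marker regions (10 adrenergic, 8 mesenchymal and 5 of other cell types) differed between groups at an adjusted p under 0.05. Over all tested regions 5.6% were called for ASO2 against NCA, 1.09% for ASO10 against NCA and 3.23% between the ASOs. Levels are counts scaled to library size (CPM), and regions are compared with each other only as CPM per kb of region width. No correction for DNA copy number was made, so levels of different clusters, which lie on different chromosomes, carry any difference in copy number.

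The promoters that open the account differ in whether they overlapped a listed accessible region. RefSeq promoter entries (GRCh38.p14) were matched for 20 of the 38 HOX genes described here. In the following the 250 bases before the start are shown 5′ to 3′ on the gene's strand, in lower case, with every TAAT, the core recognised by homeodomain proteins, or its complement ATTA in capitals. The first 4 overlapped an accessible region, namely the start shared by HOXC4 and HOXC5 (chr12:54016638-54016887, plus strand), the start of HOXD10 (chr2:176116528-176116777, plus strand), a start inside HOXA3 (chr7:27150951-27151200, minus strand) and that of HOXD8 (chr2:176129455-176129704, plus strand). The starts of HOXA9 (chr7:27165538-27165787, minus strand) and HOXD4 (chr2:176151300-176151549, plus strand) had no region within 1 kb and are shown for contrast.
HOXC4: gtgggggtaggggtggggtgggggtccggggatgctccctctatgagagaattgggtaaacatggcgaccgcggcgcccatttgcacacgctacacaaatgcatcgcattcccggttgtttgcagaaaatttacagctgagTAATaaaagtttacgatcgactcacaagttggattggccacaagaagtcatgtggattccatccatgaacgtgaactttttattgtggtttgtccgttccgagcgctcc
HOXD10: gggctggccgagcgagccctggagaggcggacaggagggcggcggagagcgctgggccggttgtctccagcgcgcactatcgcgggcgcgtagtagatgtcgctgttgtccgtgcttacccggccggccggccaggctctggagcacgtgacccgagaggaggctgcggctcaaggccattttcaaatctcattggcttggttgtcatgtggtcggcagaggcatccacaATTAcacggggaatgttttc
HOXA3: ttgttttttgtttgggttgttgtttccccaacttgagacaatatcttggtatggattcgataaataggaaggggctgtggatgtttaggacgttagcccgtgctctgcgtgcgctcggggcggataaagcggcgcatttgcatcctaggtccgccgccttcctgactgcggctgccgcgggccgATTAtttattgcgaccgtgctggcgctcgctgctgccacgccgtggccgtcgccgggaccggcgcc
HOXD8: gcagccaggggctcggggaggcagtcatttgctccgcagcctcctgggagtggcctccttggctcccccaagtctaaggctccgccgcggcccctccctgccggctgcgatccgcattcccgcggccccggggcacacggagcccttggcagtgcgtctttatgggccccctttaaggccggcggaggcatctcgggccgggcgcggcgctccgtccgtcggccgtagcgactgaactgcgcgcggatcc
HOXA9: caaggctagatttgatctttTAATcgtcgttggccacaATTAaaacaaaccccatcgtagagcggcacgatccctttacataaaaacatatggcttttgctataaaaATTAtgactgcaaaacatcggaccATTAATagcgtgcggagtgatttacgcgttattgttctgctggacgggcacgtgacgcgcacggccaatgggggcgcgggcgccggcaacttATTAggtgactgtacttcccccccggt
HOXD4: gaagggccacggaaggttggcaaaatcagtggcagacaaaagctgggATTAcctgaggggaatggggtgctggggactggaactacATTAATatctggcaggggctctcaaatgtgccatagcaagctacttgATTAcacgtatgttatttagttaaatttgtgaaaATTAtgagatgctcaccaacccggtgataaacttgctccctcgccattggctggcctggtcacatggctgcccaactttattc
The stretches before HOXA9 and HOXD4 held 6 and 5 such cores, those before HOXC4, HOXD10 and the inner HOXA3 start 1 each, and that before HOXD8 none. HOXA9 and HOXD4 held the most of all the HOX entries, so they do not stand for every entry without a region. Of others without a region, HOXA6 held 4, HOXA2 and HOXD12 held 1, and HOXA4, HOXA7 and HOXD13 held none. Of others with a region, HOXD3 held 3 and HOXD11 held 2. The stretch before HOXD4 held 4 CpG pairs and that before HOXD8 held 28. Those before HOXA7, HOXA6 and HOXA4, which had no region, held 28, 27 and 26, and that before HOXC4 held 14.

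Across all 27 promoter entries of 20 HOX genes, each of 300 bases (250 before and 50 after the start), the 9 that overlapped a region had a median GC content of 60.67% and a median of 27 CpG pairs. The 18 without a region had 54.67% and 17, and all 35116 entries of the table had 58.67% and 14. Some HOX genes have several entries, and HOXC4 and HOXC5 share theirs, so entries are not independent. TAAT on either strand was found in 21 of the 27 entries, against 50.2% of all entries. CCAAT, the box bound by nuclear factor Y, was found on either strand in 18 of 27, against 34.6% of all. The AP-1 motif TGANTCA occurred in none of the 27 and in 7.71% of all. These matches are letters in a window and do not show binding.

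HOXC was the most open cluster. In the NCA libraries its 20 regions together held 240.2 ± 11.52 CPM, against 79.32 ± 2.59 in HOXD, 42.34 ± 1.241 in HOXA and 34.82 ± 4.553 in HOXB (SD, n = 3). Per kb of region, HOXC had 12.94 ± 0.6208 CPM, HOXA 7.611 ± 0.2231, HOXD 5.694 ± 0.186 and HOXB 4.591 ± 0.6003. HOXC and HOXA thus lay apart from each other and from the rest by more than the spread of the libraries, and HOXD and HOXB differed by about 1 CPM per kb. Regions covered 14.28% of the HOXC interval and 12.11% of the HOXD interval, but 4.45% of HOXA and 3.034% of HOXB. The HOXB interval was 250 kb long, against 125 kb for HOXA, 130 kb for HOXC and 115 kb for HOXD. It includes long stretches without a HOX gene between HOXB9 and HOXB13 and beyond HOXB13. Several HOXB regions lay there, up to 46.06 kb from a HOX gene. The coverage, density and level of HOXB thus include such DNA. Among all regions of the table, 18 of the 20 HOXC regions lay above the median of 5.46 CPM per kb, and 8 were above 13.3, the level that 10% of all regions exceed. No region of the other clusters was that high. HOXC supplied 59.2% to 62.9% of the HOX counts in each of the 9 libraries.

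The clusters also stood out differently from the DNA around them. HOXD had 11.3 regions per 100 kb, against 1.5 in the 500 kb on either side, the widest contrast of the 4. HOXC had 15.38 against 8.7, HOXB 8.8 against 6.5 and HOXA 6.4 against 5.5. The longest stretch without a region was 54.8 kb in HOXA, which spans HOXA2, HOXA4, HOXA5 and HOXA6 and most of HOXA3. In the other clusters it was 23.8 kb (HOXB), 18.6 kb (HOXD) and 18.0 kb (HOXC). 

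**Figure D1:**
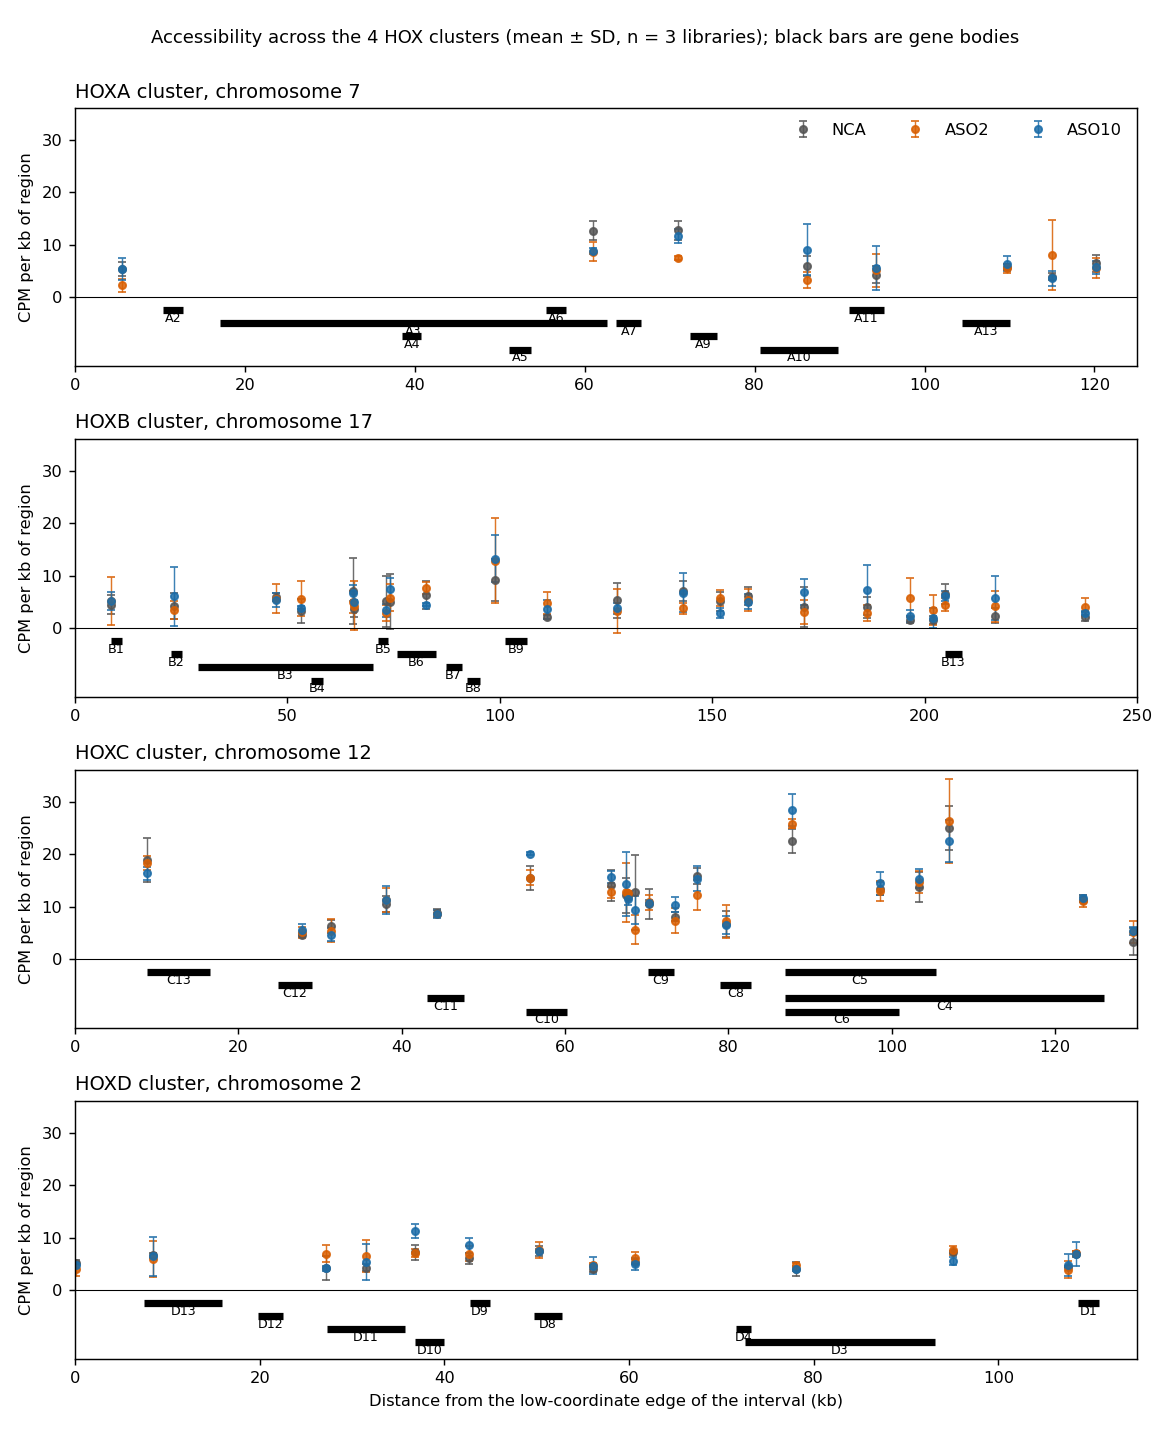
CPM per kb of each region (vertical axis; points, mean of 3 libraries; bars, SD) against distance in kb from the low-coordinate edge of each interval, for NCA, ASO2 and ASO10; black bars are the listed HOX genes. HOXC regions reach above 20 CPM per kb and HOXA has an empty stretch of 54.8 kb.

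Most gene starts in HOXC and HOXD had a listed region nearby, and most in HOXA and HOXB had none. A region lay within 1 kb of a start for 8 of 9 HOXC genes (not HOXC12), 7 of 9 HOXD genes (not HOXD4 or HOXD12), 3 of 10 HOXA genes (HOXA3, HOXA11 and HOXA13) and 1 of 10 HOXB genes (HOXB5). Together this was 19 of 38 genes, against 73.8% of 15843 protein-coding genes of the promoter table. These shares are not like for like. Only 20 of the 38 HOX genes had an entry in that table, and the others were placed by the outer gene edge alone. HOXA3 had 7 starts and HOXB3 had 1, so the clusters also differ in the starts searched. By paralog group, the starts of HOXA4, HOXA5, HOXA6 and HOXA7, all central, had none, while all 4 central HOXC genes had one. Of these, HOXC4, HOXC5 and HOXC6 share 1 start and 1 region, so the HOXC genes counted outnumber their regions. HOXA9 and HOXA10 also had none at a start. The HOXD13 region, with 5 to 31 counts per library, lay by the outer gene edge, and the promoter entry of HOXD13 (chr2:176092471-176092770) overlapped none. A region absent from the table shows only that none was listed there.

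The 2 highest regions per kb were a narrow one inside HOXC4 (chr12:54036888-54037148) and the one over the shared start of HOXC4, HOXC5 and HOXC6 (chr12:54016711-54018856), from which transcripts of several HOXC genes begin. In NCA they had 25.05 ± 4.174 and 22.53 ± 2.33 CPM per kb, in ASO2 26.35 ± 7.93 and 25.87 ± 0.9145, and in ASO10 22.51 ± 3.999 and 28.45 ± 3.061 (SD, n = 3). The order of these 2 thus differed between groups, and in NCA and ASO2 their difference was within the spread. The start of HOXC13 (chr12:53938253-53939370), which overlaps the antisense gene HOXC13-AS and is a hair and nail factor, had 18.93 ± 4.2, and that of HOXC10 (chr12:53984904-53986560), a regulator of hindlimb motor neurons, had a mean of 15.47. The starts of HOXC9, HOXC11 and HOXC8 followed with 10.57 ± 2.783, 8.888 ± 0.7186 and 6.738 ± 2.494. A region over HOTAIR, the long non-coding RNA between HOXC11 and HOXC12 (chr12:53967297-53968743), had 10.56. In HOXC the central regions had 14.27 ± 1.085 CPM per kb in NCA and the posterior ones 11.85 ± 1.01.

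In HOXD the NCA levels lay between 4.048 and 7.515 CPM per kb. The highest in NCA were the HOXD8 start with 7.515 ± 0.9792, a region over HAGLR beside HOXD3 (chr2:176174494-176175681) with 7.282 ± 0.1846 and the HOXD10 start with 7.25 ± 1.376. These 3 did not differ beyond their spread, and the HOXD1 start (6.944 ± 0.5979), the outer HOXD13 start (6.666 ± 0.4442) and the HOXD9 start (6.095 ± 1.004) followed. Over all 9 libraries the order was HOXD10 (8.55), HOXD8 (7.601) and HOXD9 (7.247), which includes the ASO10 levels of 11.23 at HOXD10 and 8.612 at HOXD9; both genes act in limb patterning. In NCA the anterior, central and posterior HOXD regions had 5.579 ± 0.6695, 5.391 ± 0.5854 and 6.088 ± 0.4903 CPM per kb, which differ by about the spread between libraries. HOXA had its 2 highest regions next to each other, between HOXA7 and HOXA9 (chr7:27160591-27161392) with 12.79 ± 1.824 and at the inner HOXA3 start (chr7:27150601-27151309) with 12.68 ± 1.831. In HOXB the highest was a region of 149 bases, 2301 bases from HOXB9 (chr17:48618706-48618855), with 9.244 ± 4.01; it rested on 7 to 24 counts per library. The HOXB6 region (chr17:48602169-48602906), which also overlaps HOXB-AS3, had 6.368 ± 2.723, and a region inside HOXB3 (chr17:48585321-48585548) had 7.176 ± 6.328, with 3.273 CPM in NCA replicate 1 and under 1 in the other two.

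The clusters hold microRNA genes, whose products pair with messenger RNAs through the seed, bases 2 to 8, given here in capitals from RefSeq. They are shown because the first 2 share their seed, and come from genes in HOXA and in both HOXB and HOXC, and because only 1 of the hairpins below lies in an accessible region.
hsa-miR-196b-5p: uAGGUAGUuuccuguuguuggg
hsa-miR-196a-5p: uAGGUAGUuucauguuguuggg
hsa-miR-10a-5p: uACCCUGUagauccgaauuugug
hsa-miR-615-3p: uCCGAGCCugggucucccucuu
The MIR615 hairpin lay inside a HOXC region (chr12:54032617-54034089) with 20.33 ± 4.175 CPM in NCA. The nearest regions to MIR196A1 in HOXB, MIR196A2 in HOXC, MIR10A in HOXB and MIR196B in HOXA were 1.04, 3.408, 5.374 and 6.556 kb away. MIR10B in HOXD was 6.475 kb from its nearest region.

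Under ASO2, 1 HOX region fell and the HOX regions together had fold changes centred near 0. Of the 54 tested regions 29 had a log2 fold change against NCA above 0, against 48.0% of all 119417 tested regions, and the median was 0.024, beside -0.024 over all. At an adjusted p under 0.05 (edgeR's quasi-likelihood test, Benjamini-Hochberg over all tested regions) 1 HOX region fell and none rose, against a background of 5.6% of all tested regions called, with 4.8% higher and 0.807% lower. At an unadjusted p under 0.05 there were 5 of 54 HOX regions, against 16.5%. The groups did not overlap in 5 of 54 HOX regions, against 20.5%. In either direction all 3 shares lay below those of all tested regions, but 1.85% of HOX regions, from 1 region, were called lower, against 0.807%. Of all regions at protein-coding starts 10.5% had an unadjusted p under 0.05, with 0.6% called higher and 0.985% lower. Of the 18 HOX regions at starts 5.56% had such a p. In simulated counts a 2-fold change was called in 88.3% of changed regions above 3 log2 CPM but in 25.1% of all, and 19 of the HOX regions were above 3 log2 CPM. The simulation changed only 200 of 119417 regions and took the spread from its trend with level, not from each region. These recovery rates may therefore differ from those of the real comparison, where 5.6% of regions were called.

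The called region lay between HOXA7 and HOXA9, 1046 bases from HOXA9, over no gene. HOXA7 and HOXA9 are a central and a posterior gene, and in other cells a boundary bound by CTCF, a factor that separates chromatin domains, has been described between them; binding was not measured here. The region measured 8.56, 10.96 and 11.2 CPM in NCA, 6.312, 5.662 and 6.096 in ASO2, and 8.137, 10.34 and 9.671 in ASO10. All ASO2 libraries were below every library of the other groups. It fell by 0.77 ± 0.22 (SE) on the log2 scale under ASO2 (edgeR adjusted p = 0.0112), and for ASO10 the log2 fold change was -0.13 ± 0.21 (adjusted p = 0.881). Directly between the ASOs the difference was -0.64 ± 0.22, with an edgeR adjusted p of 0.0785, so it was not called. The call rested on few counts, 46 to 101 per library, and was lost without ASO2 replicate 2 (adjusted p = 0.069), NCA replicate 2 (0.0641) or NCA replicate 3 (0.0855), all by edgeR, with log2 fold changes of -0.73, -0.72 and -0.70.

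No other HOXA region was called under ASO2. The inner HOXA3 start had 9.442, 7.515 and 9.98 CPM in NCA, 7.547, 6.082 and 4.931 in ASO2, and 6.189, 6.671 and 5.853 in ASO10. HOXA3 is an anterior gene of the pharynx and hindbrain, and this inner start lies between HOXA6 and HOXA7. The ASO10 libraries lay below all NCA libraries and 1 ASO2 library overlapped them. The log2 fold changes were -0.56 ± 0.23 for ASO2 and -0.52 ± 0.23 for ASO10 (edgeR adjusted p = 0.159 and 0.360). A region inside HOXA10 (chr7:27176119-27176323) had means of 1.213 CPM in NCA, 0.6781 in ASO2 and 1.863 in ASO10, on 3 to 26 counts per library, with a log2 fold change of -0.82 ± 0.70 for ASO2 (edgeR adjusted p = 0.614). At the HOXA11 start (chr7:27184020-27184494) the value was 0.21 ± 0.45 for ASO2 (-0.35 without ASO2 replicate 1), and at the HOXA13 start (chr7:27198789-27200560), which overlaps the long non-coding RNA gene HOTTIP, it was -0.06 ± 0.19. In both the groups overlapped.

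Of the 7 tested HOXA regions, 6 had lower values in ASO2 than in NCA, with a median log2 fold change of -0.557, and all 7 had lower values in ASO2 than in ASO10. Both comparisons share the ASO2 libraries. The summed HOXA accessibility was 41.92, 43.74 and 41.36 CPM in NCA, 33.34, 34.08 and 31.56 in ASO2, and 39.88, 39.91 and 41.23 in ASO10. Every ASO2 library was thus below every other library. The log2 ratio of ASO2 to NCA was -0.36, with a two-sided exact permutation p of 0.1, the smallest that 3 against 3 libraries can give, and 0.3 after adjustment over the 12 comparisons of cluster sums. Without the called region the sums were 32.1 ± 1.702 CPM in NCA and 26.97 ± 1.479 in ASO2 (SD, n = 3), and the groups still did not overlap, with a log2 ratio of -0.25. Within these sums the inner HOXA3 start had 8.979 ± 1.296 CPM in NCA and 6.187 ± 1.311 in ASO2. Sums without other single HOXA regions were not computed. For the 41 tested regions within 500 kb outside HOXA, the median log2 fold change was -0.018 under ASO2, and 22 of them were lower. Whether HOXA regions differ from these flanks was not tested.

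**Figure D2:**
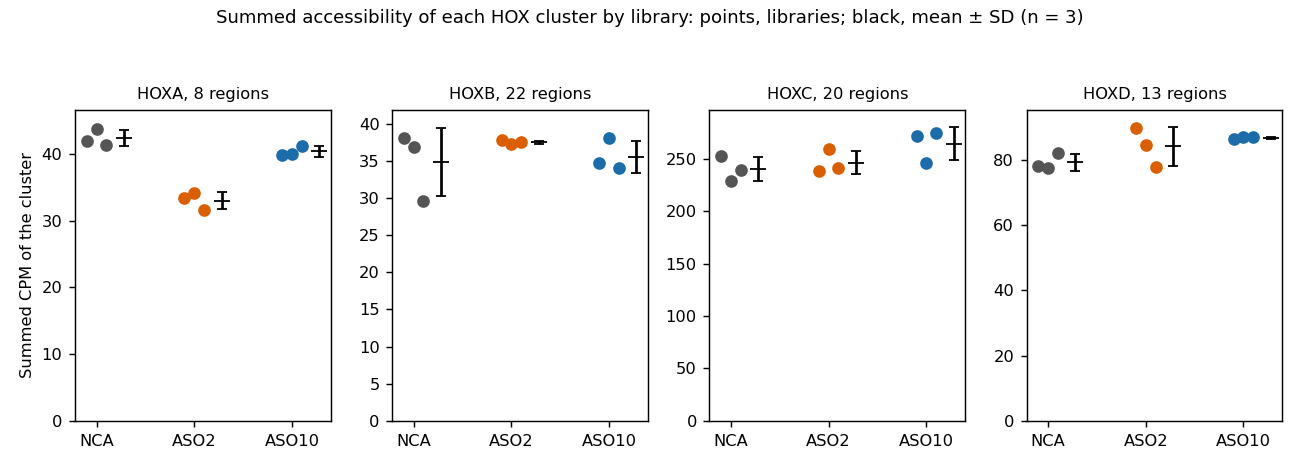
Summed CPM of all regions of each HOX cluster (vertical axis, from 0) in the 3 groups; points are libraries, black marks the mean ± SD (n = 3). In HOXA the ASO2 libraries, at 31.56 to 34.08 CPM, lie below all others.

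The other clusters gave no such separation under ASO2. The summed CPM was 37.48 ± 0.2552 in ASO2 for HOXB, 246.3 ± 11.09 for HOXC and 84.2 ± 5.959 for HOXD (SD, n = 3), each overlapping with NCA (exact permutation p = 0.5, 0.6 and 0.3). Across HOXB, 8 of 15 tested regions had values above NCA, across HOXC 11 of 20 and across HOXD 9 of 12, and no region of the 3 was called. The largest differences were in weak regions. A region over HOXB-AS4 near HOXB9 (chr17:48630912-48631450) measured 1.007, 1.355 and 1.22 CPM in NCA and 1.784, 3.88 and 2.152 in ASO2, with a log2 fold change of 1.12 ± 0.51 and an edgeR adjusted p of 0.224. A region of 205 bases before HOXC9 (chr12:53998441-53998646) had 4.28, 1.478 and 2.107 CPM in NCA and 1.784, 0.734 and 0.9862 in ASO2, with a log2 fold change of -1.19 ± 0.52 and an adjusted p of 0.199. In the first the groups did not overlap, in the second they did. Without NCA replicate 1 the value before HOXC9 was -0.65 (edgeR adjusted p = 0.705). The other regions at the ends of the range overlapped with NCA and were not called. They were a region over HOXB13 and PRAC2 (chr17:48724429-48725185; log2 fold change -0.52 ± 0.31), one over EVX2 beside HOXD13 (chr2:176079437-176080752; -0.40 ± 0.25, and -0.14 without ASO2 replicate 3), one beyond HOXC4 over FLJ12825 (chr12:54059248-54059904; 0.64 ± 0.38) and the HOXD3 start (chr2:176156887-176159345; 0.24 ± 0.19). The value beyond HOXC4 ranged from 0.14 without NCA replicate 2 to 1.28 without NCA replicate 3, and that at HOXD3 from 0.00 to 0.48 without the same libraries.

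Under ASO10, 1 HOX region rose and none fell, against a background of 1.09% of all tested regions called, with 0.875% higher and 0.21% lower. The median log2 fold change of the 54 regions was 0.020, beside -0.007 over all tested regions, and 29 of 54 were above 0, against 49.4%. At an unadjusted p under 0.05 there were 5 of 54, against 10.6%, and the groups did not overlap in 7 of 54, against 15.7%. The 5 with an unadjusted p under 0.05 all lay among the 18 tested regions within 1 kb of a HOX gene start, and of all 11674 tested regions within 1 kb of a protein-coding start 18.0% had such a p. In 4 of the 5 (HOXD10, HOXD9, HOXC10 and the shared HOXC4 start) the value was higher in ASO10, and in the fifth, the inner HOXA3 start, it was lower. Over all regions at protein-coding starts the median log2 fold change under ASO10 was 0.093, and over the 18 HOX regions it was 0.020.

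The called region covers the start and first part of HOXD10 (chr2:176116133-176117511), a posterior gene of hindlimb patterning and of lumbar motor neurons. It measured 7.805, 10.96 and 11.2 CPM in NCA, 10.57, 10.38 and 8.696 in ASO2, and 15.82, 17.12 and 13.49 in ASO10. Each ASO10 library was above all 6 others, while NCA and ASO2 overlapped. The log2 fold change was 0.63 ± 0.18 for ASO10 (edgeR adjusted p = 0.0481) and -0.03 ± 0.19 for ASO2 (adjusted p = 0.967). This call was close to the threshold and was lost in DESeq2 (adjusted p = 0.161) and limma-voom (0.111), and without any 1 of the NCA or ASO10 libraries or ASO2 replicate 1 (edgeR adjusted p from 0.0556 to 0.392). The log2 fold change ranged from 0.48 without NCA replicate 1 to 0.73 without NCA replicate 3.

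No other start in HOXD or HOXC was called under ASO10. The 3 of them with an unadjusted p under 0.05 are given in full. At HOXD9 (chr2:176122089-176123336), a neighbour of HOXD10 in the limb program, the values were 8.435, 6.16 and 8.206 CPM in NCA and 11.35, 8.783 and 12.09 in ASO10, with a log2 fold change of 0.49 ± 0.21 and an edgeR adjusted p of 0.319. The shared HOXC4, HOXC5 and HOXC6 start had 53.75, 47.31 and 43.91 CPM in NCA, 56.26, 56.94 and 53.25 in ASO2, and 62, 54.03 and 67.06 in ASO10, with 0.34 ± 0.11 for ASO10 (adjusted p = 0.127; 0.17 with loess offsets) and 0.20 ± 0.11 for ASO2 (0.372). At HOXC10 the values were 25.18, 22.05 and 29.61 CPM in NCA and 33.24, 32.8 and 33.85 in ASO10, with 0.38 ± 0.13 and an edgeR adjusted p of 0.160. In these 3 regions all ASO10 libraries lay above all NCA libraries. At the other starts the groups overlapped, with log2 fold changes of -0.01 at HOXD11, -0.03 at HOXD13, 0.02 at HOXD3 and -0.01 at HOXD1, and of -0.21 at HOXC13, -0.04 at HOXC11, 0.03 at HOXC9 and -0.03 at HOXC8. The HAGLR region beside HOXD3 had 8.435, 8.624 and 8.871 CPM in NCA and 7.45, 6.782 and 5.599 in ASO10, with -0.38 ± 0.22 and an edgeR adjusted p of 0.562; all ASO10 libraries lay below all of NCA. In HOXB the lowest value was -0.79 ± 0.41 (edgeR adjusted p = 0.491), in a region over LINC02086 (chr17:48671559-48672163), where the groups overlapped. At the HOXD8 start the ASO10 mean was 9.395 ± 0.277 CPM and the NCA mean 9.288 ± 1.21 (SD, n = 3).

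**Figure D3:**
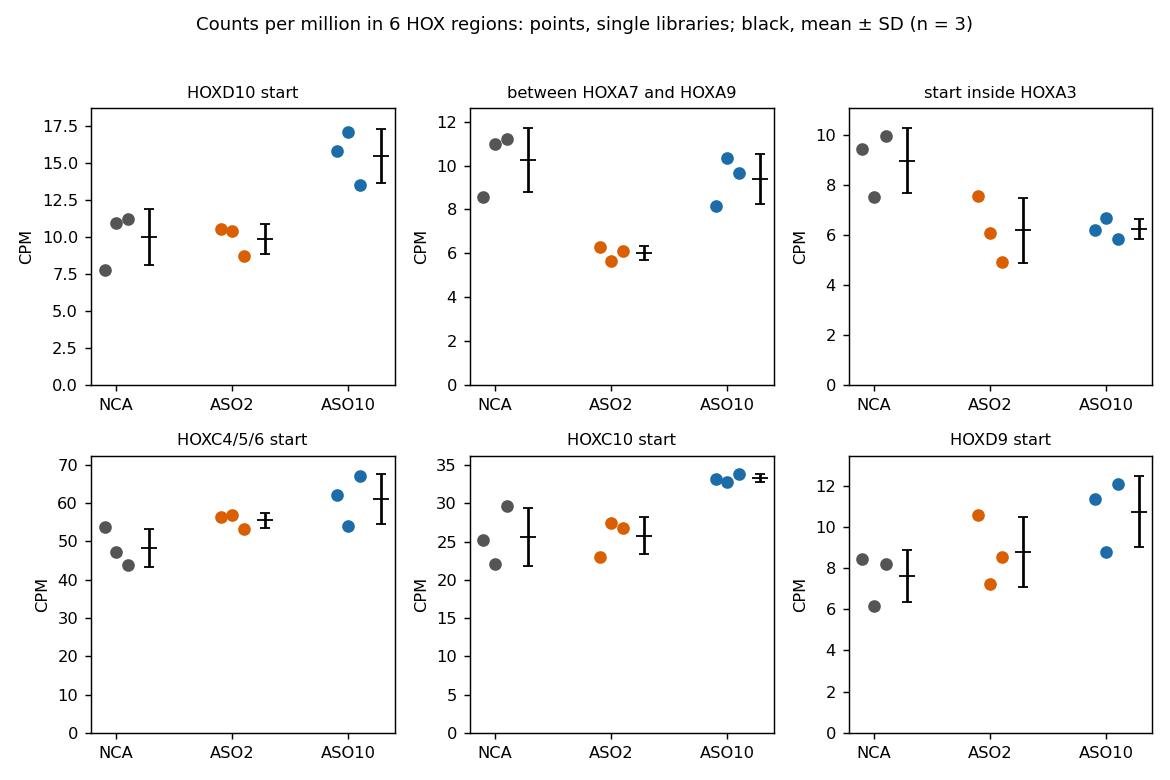
CPM (vertical axes, from 0) in 6 HOX regions by group; points are single libraries and black marks the mean ± SD (n = 3). At the HOXD10 start all ASO10 libraries lie above 13 CPM and all others below 12, and between HOXA7 and HOXA9 all ASO2 libraries lie below 7 and all others above 8.

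The HOXD sum was 78.18, 77.49 and 82.28 CPM in NCA and 86.3, 86.94 and 87.04 in ASO10. These groups did not overlap (log2 ratio 0.13, exact permutation p = 0.1, adjusted 0.3). Without the HOXD10 region they did, at 69.33 ± 2.45 in NCA and 71.29 ± 1.989 CPM in ASO10 (SD, n = 3), with a log2 ratio of 0.040 and an exact permutation p of 0.5. The separation of the HOXD sums was therefore lost without that region, and sums without other single HOXD regions were not computed. HOXA sums with ASO10 also lay just below all those of NCA, at 40.34 ± 0.7676 against 42.34 ± 1.241 (log2 ratio -0.070, exact permutation p = 0.1, adjusted 0.3), and overlapped without the called HOXA region (exact permutation p = 0.4). HOXB at 35.58 ± 2.154 and HOXC at 264.2 ± 15.76 overlapped with NCA (SD, n = 3; exact permutation p = 0.8 and 0.2).

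The direct comparison of the ASOs called the same HOXD10 region, and no other. It was lower with ASO2, by a log2 fold change of -0.66 ± 0.18 (edgeR adjusted p = 0.0146), against a background of 3.23% of all tested regions called, with 2.55% higher and 0.682% lower. DESeq2 did not call it (adjusted p = 0.0583), nor did edgeR without ASO10 replicate 1 (0.077), ASO10 replicate 2 (0.145) or ASO2 replicate 3 (0.124). With an unadjusted p under 0.05 there were 8 of 54 HOX regions, against 14.6%, and in 10 of 54 the groups did not overlap, against 19.3%. The log2 fold change was above 0 in 22 of 54, against 49.8%, with a median of -0.055, beside -0.002 over all tested regions and -0.149 over those at protein-coding starts. The HOXB6 region went the other way, with 4.803, 5.872 and 6.365 CPM in ASO2 and 3.209, 3.224 and 3.563 in ASO10 (log2 fold change 0.78 ± 0.30, edgeR adjusted p = 0.147). There the groups did not overlap, and the NCA values of 4.532, 6.776 and 2.772 CPM spanned both.

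**Figure D4:**
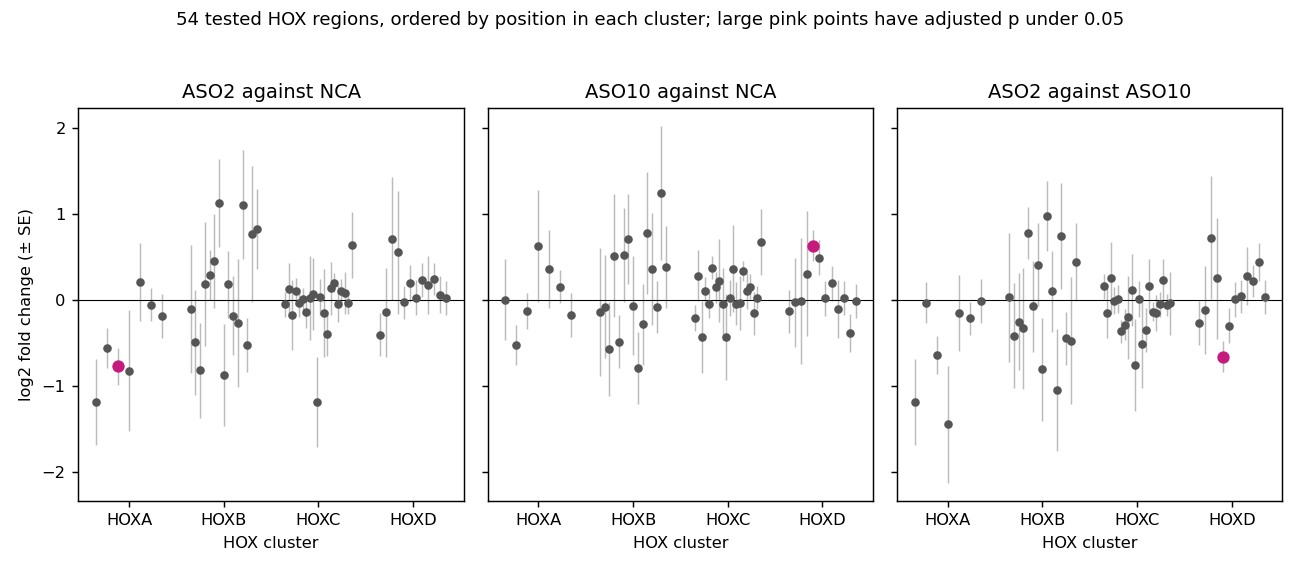
Log2 fold change ± SE (vertical axis) of the 54 tested HOX regions, ordered by position within each cluster, in the 3 comparisons; large pink points have an adjusted p under 0.05. HOXA values lie mostly below 0 in both panels with ASO2, and only 1 region is called in each panel.

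The balance between posterior and other positions overlapped between all groups. The posterior regions, 38 of 63, held 50.58% ± 1.742 of HOX counts in NCA, 48.65% ± 1.611 in ASO2 and 51.19% ± 1.796 in ASO10 (SD, n = 3). The differences gave a two-sided exact permutation p of 0.3 for ASO2 against NCA, 0.7 for ASO10 against NCA and 0.3 between the ASOs. The median log2 fold changes under ASO2 were -0.103 over 7 anterior, 0.136 over 13 central and -0.028 over 34 posterior tested regions, and under ASO10 they were -0.077, 0.029 and 0.128.

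The genes that work with or on the HOX clusters were described from lists, by tested regions within 1 kb of a gene end. Under ASO2 none of the regions of these lists was called against NCA. Of all tested regions 5.6% were called, and at protein-coding starts 0.6% were called higher and 0.985% lower. In lists of 8 to 16 regions, no call is near the shares at such starts. Under ASO10, 0.875% of all tested regions and 2.12% of those at protein-coding starts were called higher. Where a list held calls, they were 1 or 2 regions, and whether they exceed these shares was not tested. Of 14 regions of HOX cofactors 2 rose: at PBX3, a partner that sharpens the DNA binding of HOX proteins (log2 fold change 0.45 ± 0.12, edgeR adjusted p = 0.023), and at PKNOX1, a relative of the MEIS partners (0.41 ± 0.11, adjusted p = 0.037). Of 16 Polycomb regions 1 rose, at SUZ12, a core subunit of the complex that methylates histone H3 at lysine 27 (0.72 ± 0.18, edgeR adjusted p = 0.0111). Of 11 trithorax and demethylase regions 1 rose, at KDM6B, which removes that methylation (0.46 ± 0.13, edgeR adjusted p = 0.0297). No region of the 11 of upstream regulators or the 8 of genes beside the clusters was called under ASO10.

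Between the ASOs, each called region of these lists was lower in ASO2. Of all tested regions 3.23% were called in this comparison and 0.682% were lower, and at protein-coding starts, where values leaned lower in general (8611 of 11674), 3.18% were called lower and 0.36% higher. The called regions were 1 of 14 cofactor regions (PKNOX1), 2 of 16 Polycomb regions (BMI1 and RYBP), 3 of 11 trithorax and demethylase regions (KMT2B, KDM6A and KDM6B), 1 of 11 regions of upstream regulators (CTCF, with -0.53 ± 0.12 and an edgeR adjusted p of 0.00115) and 1 of 8 beside the clusters (CBX5, a heterochromatin protein gene next to HOXC). The median log2 fold changes were 0.055, -0.268, -0.199, 0.052 and -0.072 in that order, beside -0.149 over all tested regions at protein-coding starts.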

How the data were processed

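The authors deposited 1 table of whole-number counts in 148797 regions for 9 ATAC-seq libraries. Per the submitters' processing notes the tools were FastQC, Bowtie2 2.2.6, SAMtools, MACS2 2.1.2 and DESeq2 1.42.0 on GRCh38; their settings, the Tn5 shift, whether reads or fragments were counted and how regions were pooled are not given in the sources used here. Coordinates are as the region names give them. A region not listed may still hold weak signal.

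Regions were filtered with filterByExpr (119417 left), scaled by TMM and tested with edgeR 4.0.16 in R 4.3.3 (robust quasi-likelihood fit, 9 libraries, group term; Benjamini-Hochberg, threshold 0.05). The SE of an edgeR fold change was derived from the fold change and its unadjusted p, so it adds no separate measure of spread. Background shares count all tested regions. Cluster sums and posterior shares were compared by exact permutation. Regions named are those called, the 3 highest per kb over all libraries in each cluster, the largest and smallest fold changes against NCA per cluster above 1 log2 CPM, and those at gene starts (most as ranges or counts). Single regions at HOTAIR, HAGLR and MIR615 were given beside these. A region that enters the counts and sums, and 1 gene of the lists, are not reported here. Members and lists were chosen with earlier results of these data known. The labels do not say that replicates are separate cultures, so p-values measure the spread between samples, which may be technical. No pair of libraries of a group agreed within sampling noise (chi-square per degree of freedom 2.93 to 3.65).

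The fit was tested on 5 sets of simulated counts for 119417 regions, 200 of them changed by 1 on the log2 scale for ASO2 against NCA: 14 of 265 calls were false. Alternatives were DESeq2 1.42.0, limma-voom (limma 3.58.1), RLE factors, total counts, loess offsets (span 0.3), a fit of all regions without a filter, a minimum of 10 counts in each library, a fit of only the 2 groups, a replicate block and leaving out each library. Sums without a called region were added after seeing the data. Gene positions, promoters and microRNAs are from RefSeq GRCh38.p14; gene starts are the outer gene edge by strand and the promoter table's starts. Tables used Python 3.11.15, pandas 2.3.3, SciPy 1.17.1 and matplotlib 3.10.9.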

Additional observations from a re-analysis of the deposited data

Results flagged for a closer look

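The HOXD10 start region (chr2:176116133-176117511) differed between the 2 ASOs by a log2 fold change of -0.66 for ASO2 against ASO10 (edgeR adjusted p = 0.0146), lower in 3 of 3 ASO2 libraries. It stands out because the response to the 2 oligonucleotides against the same RNA differs in a direct test of the difference, at 1 of 54 tested HOX regions, beside 3.23% of all tested regions called in this comparison. The call was lost in DESeq2 (adjusted p = 0.0583) and, with edgeR, without ASO10 replicate 1 (adjusted p = 0.077), ASO10 replicate 2 (0.145) or ASO2 replicate 3 (0.124).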

How the results depend on the processing

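The number of HOX regions called moved by at most 1 in each comparison. For ASO2 against NCA the count of 1 held under each tool, scaling, filter and design tried, and leaving out single libraries gave 0 to 1. For ASO10 against NCA the count was 0 with DESeq2, limma-voom, loess offsets, no filter, total counts and the replicate block, and 0 to 1 without single libraries. For ASO2 against ASO10 it was 0 with DESeq2, 2 with loess offsets (the HOXA7 to HOXA9 region beside HOXD10) and 2 with at least 10 counts in every library (HOXC10 beside HOXD10), and 0 to 1 without single libraries. The cause of these changes was not tested. Leaving out the called region moved the log2 ratio of the HOXA sum to -0.251 for ASO2 against NCA and -0.199 for ASO2 against ASO10, and that of the HOXD sum to 0.0402 for ASO10 against NCA and 0.0601 for ASO2 against ASO10, the last with a change of sign from -0.043. Same-numbered libraries of different groups did not deviate together (correlations from -0.049 to 0.0204), so the numbers give no pairing, and the replicate block changed only the HOXD10 call of ASO10 (edgeR adjusted p = 0.0691). No scaling moved the median of all regions by over 0.05. No named region reversed its direction past the threshold. Of 1368 recomputed values 1291 stayed on the same side of 0 and of the threshold, or within the spread.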
